A study of Mus musculus with 12 samples.

Results

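The testes of mice given 1 dose of busulfan and then saline (Sa, 3 libraries) were compared with the testes of untreated mice (Con, 3 libraries) by RNA sequencing. The 6 libraries belong to a series of 12 with 22221 rows of values, and 14798 rows with at least 1 FPKM (the authors' fragment number scaled by transcript length and library size) in at least 3 of the 6 libraries were tested. All mice were of the outbred ICR stock. Sa mice received busulfan at 3 weeks of age and saline for the following 2 weeks, and their testes were taken after 3 more weeks. The Con mice have no stated age. Their columns are named with a prefix of their own, and whether they form a separate batch cannot be told apart from the treatment. The labels mention cultured testis but name no culture step, nor is it stated that the 3 libraries of a group came from 3 animals. The p-values therefore measure the spread between these libraries, which may be technical.

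Busulfan alkylates DNA. In the seminiferous tubule it kills proliferating germ cells and largely spares the somatic cells around them. In mice the stem spermatogonia that survive can repopulate the tubule, and their descendants pass through meiosis before they become round and then elongating spermatids. Sertoli cells nurse the germ cells, Leydig cells between the tubules make androgen, and peritubular myoid cells, vessels and macrophages complete the somatic compartment. In a whole testis, fewer cells of a type and less RNA per cell cannot be told apart.

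Nearly the whole transcriptome differed between the groups. With limma on log2(FPKM + 1) and Benjamini-Hochberg adjustment, 8204 genes rose in Sa (55.4% of those tested) and 4736 fell (32.0%) at an adjusted p under 0.05, together 87.4%. The FPKM ranges of the 2 groups did not overlap in 13162 genes (88.9%). The median log2 fold change was 0.57, its quartiles were -0.80 and 1.60, and 527 genes fell by more than 3 log2 units while 721 rose by more than 3. At 1 FPKM, 1643 genes were detected in all Sa libraries and in no Con library, and 571 showed the reverse. These genes passed the filter through a single group. Genes that rose held 59.4%, 65.8% and 69.5% of the summed FPKM of the Sa libraries, against 16.03%, 16.16% and 15.39% in Con. Genes that fell held 27.4%, 22.2% and 18.9% of it in Sa, against 73.8%, 73.4% and 74.5% in Con. FPKM is relative to the whole library, so when an abundant class of transcripts is lost every other value is raised. The FPKM were spread over more genes in Sa: 915 to 1007 genes made up 50% of them in Sa and 531 to 553 in Con. The table gives no read counts, so the depth of the libraries is unknown.

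The Sa libraries were less alike than the Con libraries. Between Sa libraries the correlation of log2 values was 0.961 to 0.980, and between Con libraries 0.991 to 0.993. The first principal component carried 95.9% of the variance, and on it Sa replicates 1, 2 and 3 lay at -86.0, -107.7 and -127.9 and the Con libraries between 104.5 and 111.2. Sa replicate 1 was thus the nearest to Con and Sa replicate 3 the farthest. Most germ cell genes followed the same order.

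The fall in Sa was larger, by list median, for each later step of sperm formation. Of 27 genes of elongating and condensing spermatids, all tested, 27 fell, with a median log2 fold change of -4.56 beside 0.57 for all genes. Of 22 round spermatid genes 22 fell (median -3.04), and of 20 genes of pachytene and later spermatocytes 19 fell and none rose (median -1.93). The elongating spermatid list made up 0.697%, 0.508% and 0.166% of the FPKM in Sa, against 9.44%, 9.05% and 9.51% in Con.

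Tnp1 (Gene ID 21958), a transition protein that replaces histones before the protamines, had 238, 199 and 21.1 FPKM in the 3 Sa libraries, against 4969.99, 4569.5 and 5378 FPKM in the 3 Con libraries, a log2 fold change of -5.60 ± 0.83 (SE, limma adjusted p = 3.80e-04). Sa replicate 3 was far below the other Sa libraries, and the groups did not overlap, as in 88.9% of all genes tested. Values with ± below are log2 fold changes of Sa over Con with their SE, before Sertoli scaling unless stated, and passed the test unless stated. Odf1, a protein of the outer dense fibres of the sperm tail, had 101, 62 and 28.6 FPKM in Sa, against 1436, 1332 and 1298 in Con (-4.56 ± 0.40, limma adjusted p = 2.12e-05). Spem1, which is needed to shape the sperm head and neck, had 34.4, 22.5 and 3.12 FPKM in Sa, against 828, 715 and 732 in Con. Akap4 (Gene ID 11643), the main scaffold of the fibrous sheath, is X-linked and had 51.5, 42.1 and 13.5 FPKM in Sa, against 817, 826 and 842 in Con (-4.69 ± 0.44). In these genes Sa replicate 1 was the highest of the Sa libraries and replicate 3 the lowest; of the 27 list members, 26 were highest in Sa replicate 1 and 27 lowest in Sa replicate 3.

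Among the round spermatid genes, Gsg1 (Gene ID 14840), a germ cell protein that binds a testis poly(A) polymerase, had 130.4, 73 and 34.4 FPKM in the 3 Sa libraries, against 1874, 1713 and 1676 FPKM in the 3 Con libraries (-4.65 ± 0.42, limma adjusted p = 2.52e-05). Sun5, which anchors the sperm tail to the head, was at -3.13 ± 0.19, Catsper3, a subunit of the sperm calcium channel, at -2.81 ± 0.16, and Spaca1, a protein of the acrosome membrane, at -2.71 ± 0.17. Crem, the activator of many spermatid genes, had 21.7, 16.5 and 13.9 FPKM in Sa, against 71, 76.6 and 70.5 in Con (-2.02 ± 0.16). In the spermatocyte list Pgk2, the glycolytic phosphoglycerate kinase of germ cells, had 70.9, 52.8 and 35.5 FPKM in Sa, against 594, 577 and 610.1 in Con (-3.51 ± 0.23). Adam3, a sperm surface protein, was at -2.67 ± 0.19, Calr3, a testis calreticulin, at -3.31 ± 0.16, and Meig1, a meiosis-expressed gene, at -2.44 ± 0.23. Mybl1, a transcription factor of pachytene cells, had 6.97, 10.1 and 6.51 FPKM in Sa, against 6.62, 8.66 and 9.65 in Con and did not pass the test (limma adjusted p = 0.699).

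Earlier germ cells gave a mixed picture. Of 24 genes of early meiotic prophase 23 were tested, and 5 rose and 7 fell, with a median of -0.01, where 55.4% of all genes rose and 32.0% fell. The direction of the rises depends on the scale: with each library rescaled to an equal mean log2 level of the Sertoli genes (Sertoli scaling, whose results over all genes follow below), none of the 23 was higher and 23 were lower (median -3.46). That stands beside 1.20% of all genes higher and 89.6% lower under this scaling. Of the 5 that rose as deposited, Dmc1, the meiotic strand exchange protein, had 17.4, 12.6 and 9.54 FPKM in Sa, against 2.92, 5.18 and 4.29 in Con (1.46 ± 0.24), Prdm9, which marks recombination sites, was at 1.10 ± 0.12, Rec114, a partner in break formation, at 1.04 ± 0.16, Rad21l, a meiotic cohesin, at 1.16 ± 0.18, and Meiob, a single-strand binding protein, at 0.78 ± 0.28. After Sertoli scaling they were at -1.78 ± 0.28, -1.50 ± 0.14, -1.81 ± 0.17, -1.15 ± 0.18 and -2.54 ± 0.31 in the same order. All 5 were also below 0 in sign under the same scaling to endothelial genes, whether or not they passed. Dmc1, for example, did not pass there (-0.52 ± 0.29, limma adjusted p = 0.0957). The Sa and Con libraries of Meiob overlapped, and those of Dmc1, Prdm9, Rec114 and Rad21l did not, as in 88.9% of all genes tested. The largest falls were in Syce2 (-2.01 ± 0.26), Rec8 (-1.87 ± 0.18) and Syce1 (-1.78 ± 0.20), parts of the synaptonemal complex and the meiotic cohesin. Tex101, a germ cell surface protein and the highest of the list, had 361, 197 and 157 FPKM in Sa, against 174, 207 and 159.7 in Con, and its groups overlapped.

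Most spermatogonial genes tested rose as deposited, beside 55.4% of all genes, and none was higher after Sertoli scaling. Under that scaling 1.20% of all genes were higher and 89.6% lower. Of 18 genes of undifferentiated spermatogonia 11 were tested, and 8 rose and 2 fell (median 1.08); after Sertoli scaling 11 were lower (median -1.18). Etv5, a factor that keeps stem spermatogonia renewing and is made in Sertoli cells too, had 40.5, 42.9 and 38.4 FPKM in Sa, against 5.20, 4.79 and 4.42 in Con (2.84 ± 0.10). Foxo1, a factor of the same cells, had 12.2, 11.5 and 12.5 FPKM in Sa, against 1.82, 1.83 and 1.74 in Con (2.23 ± 0.09), and Zbtb16, another, was at 1.41 ± 0.11. The exceptions were Gfra1, a receptor for GDNF, with 1.70, 1.63 and 1.42 FPKM in Sa, against 2.40, 2.74 and 2.54 in Con (-0.46 ± 0.10, limma adjusted p = 0.00371), and Lhx1, with 0.16, 0.24 and 0.04 FPKM in Sa, against 1.31, 1.03 and 1.87 in Con (-1.06 ± 0.15). Both were at or below 2.74 FPKM in all 6 libraries. Of 12 genes of differentiating spermatogonia, all tested, 9 rose and 1 fell (median 1.34); after Sertoli scaling 12 were lower (median -1.84). Stra8, which starts meiosis on retinoic acid, had 40.8, 26.5 and 23.4 FPKM in Sa, against 7.80, 8.70 and 7.52 in Con (1.76 ± 0.20), Kit, a receptor of differentiating spermatogonia and of Leydig cells, was at 2.37 ± 0.23 and Dmrt1, expressed in spermatogonia and Sertoli cells, at 2.51 ± 0.11. Dmrtb1, needed for the change from mitosis to meiosis, had 128, 89.4 and 68.5 FPKM in Sa, against 415, 413 and 430.00 in Con (-2.17 ± 0.21) and was the 1 member that fell.

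**Figure D1:**
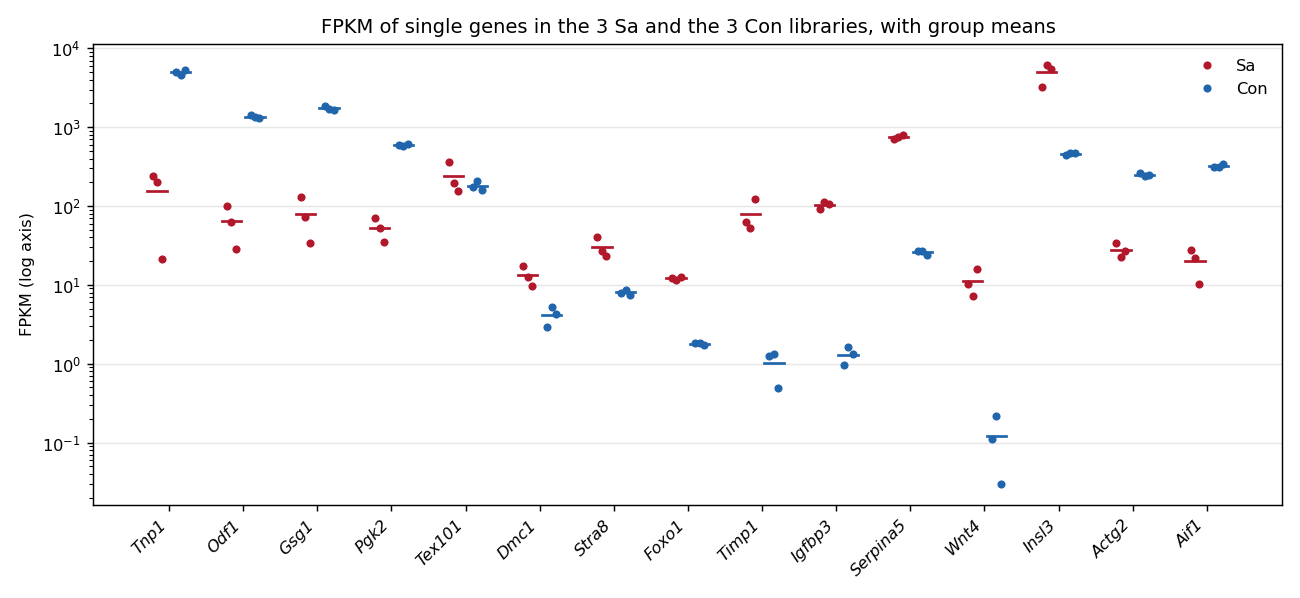
FPKM on a log axis of 15 genes in the 3 Sa libraries (red, left of each pair) and the 3 Con libraries (blue, right), with group means as bars. Late germ cell genes at the left were lower in Sa, such as Tnp1 with 153 FPKM on average in Sa and 4973 in Con, while Serpina5 had 750.4 FPKM on average in Sa and 25.8 in Con; Tex101 overlapped, and Actg2 and Aif1 fell among somatic list members.

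The promoter windows of the genes that fell furthest differed from the rest in the share with an octamer and in CpG content. RefSeq promoter windows of GRCm38.p6, from 250 bases before to 50 after each start, were at hand for 11166 of the genes tested, 1 window a gene. The octamer TGATGTCA, searched on both strands, was present in 19.9% of windows (30 of 151) of genes called lower below a log2 fold change of -4. It was present in 9.65% (85 of 881) of those between -4 and -2, in 4.17% (104 of 2493) of the smaller falls, in 1.37% (59 of 4313) of rises up to 2 and in 1.58% (31 of 1965) of larger rises. Over all windows its share was 3.05%. The palindrome TGACGTCA, the cAMP response element through which Crem and its relatives bind DNA, was in 3.03% of all windows and in 1.32% (2 of 151) of those of the steepest fallers. The octamer was chosen after the windows had been seen, so these shares describe the windows and were not tested.

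Windows of the steepest fallers also held few CpG pairs, the dinucleotides that cluster in the promoters of widely used genes. Their median was 3 per window below -4 and 7 between -4 and -2, against 20 over all genes and 19 for rises above 2. Among the 2817 windows with at most 10 CpG the octamer was again found most often in the steepest fallers: 22.9% below -4, 14.3% between -4 and -2, 11.1% in smaller falls, 2.95% in rises up to 2 and 1.90% in larger rises. Among windows of few CpG the share was thus still highest in the steepest fallers, while the 2 classes of rises changed places.

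Below are the windows of 4 fallers that hold the octamer and, for contrast, of Igfbp3, among the largest rises, with 37 CpG and no copy. They do not stand for their classes. Of other large falls, Prm1, Prm2, Tnp2, Spem1 and Cabs1 hold no copy, while Lelp1 holds 1. Of other large rises, Serpina5 and Timp1 have 6 and 8 CpG and Aqp5 has 46, all without a copy. The windows below read 5′ to 3′ along the gene's strand, and capitals mark the octamer or its reverse complement. The coordinates are chr1:73015850-73016149 on the minus strand for Tnp1, chr6:135254287-135254586 minus for Gsg1, chrX:7067265-7067564 plus for Akap4, chr7:30743632-30743931 minus for Gapdhs and chr11:7213874-7214173 minus for Igfbp3.
Tnp1: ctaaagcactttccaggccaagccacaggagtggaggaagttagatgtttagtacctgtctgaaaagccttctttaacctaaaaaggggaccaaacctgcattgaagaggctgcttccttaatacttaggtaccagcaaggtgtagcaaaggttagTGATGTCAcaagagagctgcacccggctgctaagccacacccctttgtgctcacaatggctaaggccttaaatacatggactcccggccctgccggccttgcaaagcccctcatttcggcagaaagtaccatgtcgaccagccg
Gsg1: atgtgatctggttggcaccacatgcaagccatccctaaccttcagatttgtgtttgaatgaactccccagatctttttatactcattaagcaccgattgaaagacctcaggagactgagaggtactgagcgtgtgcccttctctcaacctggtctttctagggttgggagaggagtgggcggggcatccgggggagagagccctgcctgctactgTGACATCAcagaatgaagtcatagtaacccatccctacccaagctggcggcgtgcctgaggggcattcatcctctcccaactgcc
Akap4: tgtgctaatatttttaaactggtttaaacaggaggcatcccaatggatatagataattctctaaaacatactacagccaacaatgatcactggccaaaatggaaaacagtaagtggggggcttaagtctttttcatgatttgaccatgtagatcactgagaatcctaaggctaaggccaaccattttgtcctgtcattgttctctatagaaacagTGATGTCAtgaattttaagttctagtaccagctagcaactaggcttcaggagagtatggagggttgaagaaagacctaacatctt
Gapdhs: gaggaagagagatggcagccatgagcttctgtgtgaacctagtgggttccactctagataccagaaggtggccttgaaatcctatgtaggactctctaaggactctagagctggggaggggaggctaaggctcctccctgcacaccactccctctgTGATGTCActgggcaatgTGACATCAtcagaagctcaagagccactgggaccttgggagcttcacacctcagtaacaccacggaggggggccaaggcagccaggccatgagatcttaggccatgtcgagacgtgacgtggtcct
Igfbp3: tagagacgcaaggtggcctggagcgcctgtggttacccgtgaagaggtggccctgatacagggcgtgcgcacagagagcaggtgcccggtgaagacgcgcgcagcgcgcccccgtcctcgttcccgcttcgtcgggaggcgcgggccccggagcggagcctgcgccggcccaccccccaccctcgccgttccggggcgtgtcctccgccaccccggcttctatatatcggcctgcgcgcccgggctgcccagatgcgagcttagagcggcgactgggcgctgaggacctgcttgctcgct
The octamer begins 94 bases before the start in Tnp1 and, as the first of 2 copies, in Gapdhs, and 35 bases before it in Gsg1 and Akap4. Gapdhs, the sperm tail form of glyceraldehyde-3-phosphate dehydrogenase, had 91.1, 57.1 and 19.1 FPKM in Sa, against 1437, 1312 and 1316 in Con (-4.83 ± 0.49), and all 4 genes were highest in Sa replicate 1 among the Sa libraries. A match is a string of letters, and no binding was measured here.

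**Figure D2:**
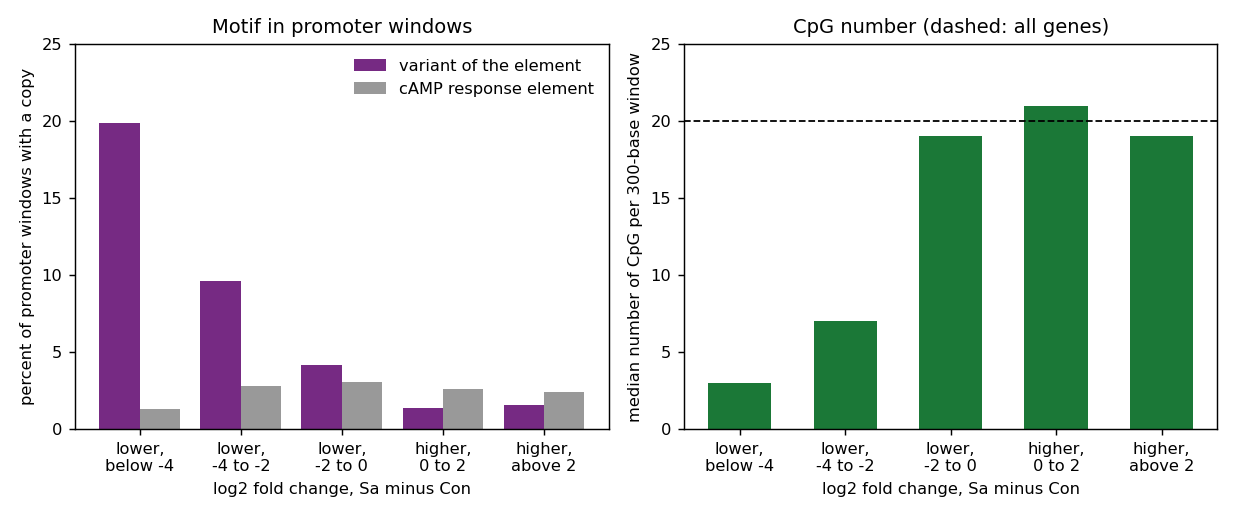
Genes called lower or higher in Sa, split by log2 fold change (x axis), with the percent of 300-base promoter windows that hold the octamer (purple) or the cAMP response element (grey) at the left, and the median number of CpG per window at the right. The octamer is in 19.9% of the windows of the steepest fallers and in 1.58% of those of the largest rises, and the CpG medians are 3 and 19.

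To look past the change of composition, each library was rescaled so that the mean log2(FPKM + 1) of the 28 Sertoli genes was the same in all 6. The factors were 0.303, 0.281 and 0.244 for Sa and 3.40, 3.70 and 3.82 for Con. Before rescaling, all 28 Sertoli genes rose, with a median log2 fold change of 3.52. After it the median of all genes was -2.53, 178 genes were higher in Sa (1.20% of those tested) and 13256 were lower (89.6%). All 178 had also been higher before rescaling. Of the 8204 genes that had been higher, 6701 became lower and 1325 did not pass. The 178 are thus the genes whose rise exceeded that of Sertoli transcripts as a group. Of them, 45 were also higher under an endothelial anchor, a macrophage anchor, a pseudocount of 0.1, the replicate block and without each library in turn. The count of 178 was 104, 66 and 75 without Sa replicates 1, 2 and 3, with 13102, 13105 and 13129 genes tested. Genes under 1 FPKM in every Con library were not tested in these 3 fits, so they could not be among the 45. The endothelial and macrophage anchors raised fold changes as a whole and held all 178, so they did not narrow the count.

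Among the 178 genes, Igfbp3 (Gene ID 16009), a carrier of insulin-like growth factors, had 92.6, 113 and 106 FPKM in the 3 Sa libraries, against 0.97, 1.62 and 1.31 FPKM in the 3 Con libraries, log2 fold changes of 5.52 ± 0.14 before and 2.38 ± 0.19 after Sertoli scaling (limma adjusted p = 1.88e-06 after). Timp1 (Gene ID 21857), an inhibitor of matrix metalloproteinases, had 63.3, 52.9 and 121 FPKM in Sa, against 1.24, 1.33 and 0.49 in Con, or 2.26 ± 0.31 after scaling, with Sa replicate 3 above the other 2 Sa libraries. Serpina5, an inhibitor of plasminogen activators and other serine proteases, had 702, 761 and 788 FPKM in Sa, against 26.6, 27.1 and 23.7 in Con (1.13 ± 0.14 after scaling). In these genes the Sa and Con libraries did not overlap, which the rule that named them required. Aqp5, a water channel of secretory epithelia, had 38.9, 41.8 and 45.3 FPKM in Sa, against 0.67, 0.83 and 0.34 in Con (2.0 ± 0.20 after scaling), and Ramp1, a co-receptor for calcitonin gene-related peptide, had 16.3, 13.1 and 21.4 FPKM in Sa, against 0.06, 0.17 and 0.21 in Con (1.87 ± 0.18 after scaling). Tnni3, the cardiac inhibitory troponin, had 134, 142 and 177 FPKM in Sa, against 6.38, 3.03 and 0.32 in Con (2.31 ± 0.71 after scaling), and its Con libraries were spread more widely on the log scale than its Sa libraries. Mmp23, a membrane-anchored metalloproteinase, had 7.86, 7.57 and 13.6 FPKM in Sa, against 0, 0.07 and 0.06 in Con (1.63 ± 0.16 after scaling). Aqp5, Ramp1 and Mmp23 were under 1 FPKM in every Con library, so they were tested only through Sa and could not be among the 45.

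Within the Sertoli list, 5 genes were above and 6 below the rest after scaling; the list is centred by construction, so only its spread is informative. Above were Shbg (1.04 ± 0.15), the androgen-binding protein, Fshr (0.93 ± 0.16), the receptor of follicle-stimulating hormone, Amh (0.73 ± 0.10), anti-Müllerian hormone, Inha (0.71 ± 0.16), the inhibin alpha subunit, and Gja1 (0.35 ± 0.14), the gap junction protein connexin 43. Below were Rhox5 (-1.09 ± 0.14), Rhox8 (-0.80 ± 0.23), Tubb3 (-0.72 ± 0.14), Espn (-0.54 ± 0.16), Defb19 (-0.54 ± 0.17) and Wt1 (-0.32 ± 0.12). Rhox5 and Rhox8 are homeobox genes of Sertoli cells that respond to androgen, and Espn bundles actin at their junctions with spermatids. Amh had 21.5, 22.6 and 26.5 FPKM in Sa, against 0.97, 0.99 and 0.91 in Con, and Rhox5 had 39.2, 46.2 and 40.7 FPKM in Sa, against 8.46, 6.48 and 6.36 in Con. Both rose before scaling. Amh was under 1 FPKM in every Con library, so it was tested only through Sa.

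Leydig transcripts rose and had the next highest median after the Sertoli list. Of 19 Leydig genes 17 were tested and 16 rose (median 3.09), beside 55.4% of all genes. After Sertoli scaling none was higher and 7 were lower (median -0.36), beside 1.20% and 89.6% of all genes. Insl3, the Leydig hormone that guides testis descent, had 3199, 6165 and 5463 FPKM in Sa, against 449.9, 465 and 475 in Con (3.36 ± 0.25). Cyp11a1, which opens steroid synthesis, had 275, 585 and 527 FPKM in Sa, against 42.6, 31.1 and 37.1 in Con, and Hsd17b3, the last step to testosterone, had 92, 211 and 178 FPKM in Sa, against 11.2, 11.4 and 9.41 in Con. In these 3 genes Sa replicate 1 stood lowest, as it did in all 17 Leydig genes tested. Scarb1, a receptor for lipoproteins, rose by less (2.64 ± 0.16), as did Cyb5a, a cofactor of androgen synthesis (2.93 ± 0.11), and Fdx1, the electron donor of Cyp11a1 (1.35 ± 0.15). Nr4a1, an inducible nuclear receptor, had 10.9, 17.4 and 17.1 FPKM in Sa, against 20.6, 18.1 and 19.5 in Con and did not pass (limma adjusted p = 0.0885).

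Transcripts of the tubule wall and of vessels rose, with lower medians than the Sertoli list. Of 14 peritubular myoid genes tested of 15, 13 rose (median 2.41) and 12 were lower after Sertoli scaling (median -0.78). For all genes the shares were 55.4% that rose and 89.6% lower after scaling. Acta2, the smooth muscle actin of the tubule wall, had 192, 233 and 309 FPKM in Sa, against 30.8, 34 and 26 in Con (2.95 ± 0.19), and Myl9, its myosin light chain, was at 3.03 ± 0.16. Dcn, a proteoglycan of fibroblasts, had 94.4, 199 and 145 FPKM in Sa, against 12.2, 11.6 and 12.1 in Con and moved with the Sertoli genes (-0.17 ± 0.23 after scaling, not passed). Of 15 endothelial genes tested of 16, 14 rose (median 2.04) and 14 were lower after scaling. Cdh5, the endothelial cadherin, had 11.9, 13.7 and 17.6 FPKM in Sa, against 1.71, 2.29 and 1.91 in Con (2.36 ± 0.16). Robo4, a guidance receptor of vessels, was apart from its list, with 20.6, 30.4 and 33.5 FPKM in Sa, against 1.12, 0.96 and 0.71 in Con and a log2 fold change after scaling of 0.99 ± 0.15 (limma adjusted p = 2.39e-04). All 15 endothelial genes tested were highest in Sa replicate 3.

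Of 15 macrophage genes tested of 18, 12 rose and 3 fell (median 2.44), beside 55.4% and 32.0% of all genes. After Sertoli scaling none was higher and 11 were lower, beside 1.20% and 89.6% of all genes. The complement subunits C1qa and C1qc rose by 3.03 ± 0.16 and 3.13 ± 0.13, and Laptm5, a lysosomal protein of blood cells, by 2.73 ± 0.14. The receptors Csf1r (2.59 ± 0.20) and Cx3cr1 (2.05 ± 0.14) moved with them. The 3 that fell were Aif1 with 27.9, 22 and 10.2 FPKM in Sa, against 309.6, 309.98 and 339 in Con (-4.03 ± 0.32), Msr1 with 0.71, 2.05 and 1.16 FPKM in Sa, against 7.62, 7.20 and 7.20 in Con (-1.90 ± 0.20) and Fcgr3 with 10.2, 10.8 and 8.13 FPKM in Sa, against 29.4, 25.7 and 15.7 in Con (-1.16 ± 0.23). In Con, Aif1 stood above C1qa in FPKM, and in Sa below it. Single members of other somatic lists fell too: Actg2, a smooth muscle actin, had 33.6, 22.4 and 26.6 FPKM in Sa, against 259.6, 244 and 249.99 in Con (-3.16 ± 0.15) and Sox17, an endothelial factor, 5.42, 4.71 and 5.54 FPKM in Sa, against 7.48, 7.80 and 8.26 in Con (-0.51 ± 0.10). Cd3d, a T cell receptor chain, had 0.91, 0.58 and 0.37 FPKM in Sa, against 10.7, 9.52 and 9.56 in Con (-2.77 ± 0.14), although its partners Cd3e and Cd3g were at or under 0.70 FPKM in all 6 libraries.

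**Figure D3:**
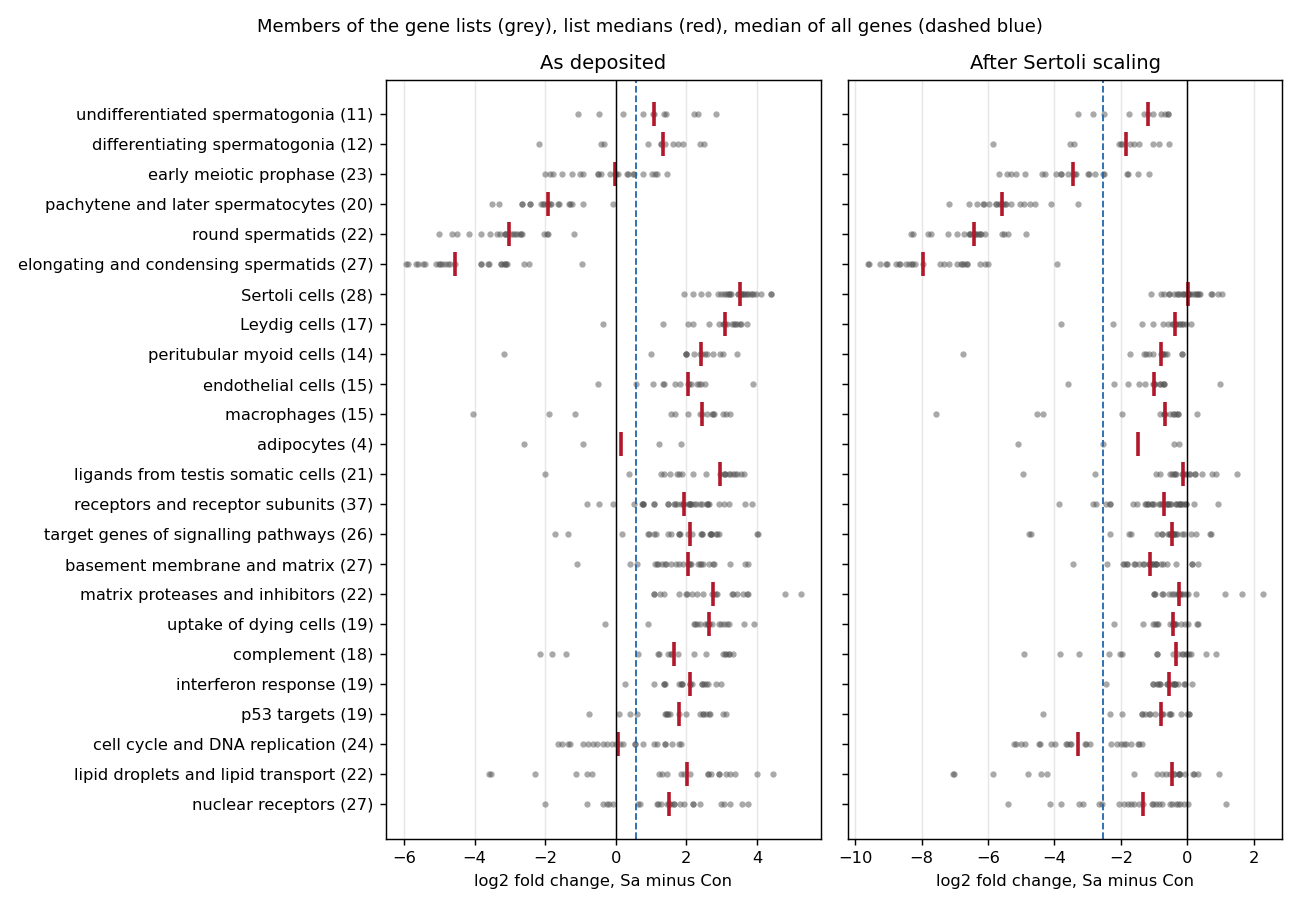
Log2 fold changes of Sa minus Con for the tested members (grey points; number in brackets) of the lists with at least 4 tested members, as deposited (left) and after Sertoli scaling (right). Red bars are list medians and the dashed blue line is the median of all genes, 0.57 at the left and -2.53 at the right; elongating spermatids lie farthest left and the Sertoli list, at 3.52 and 0.02, farthest right in both panels.

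Genes that carry signals between somatic and germ cells mostly moved with the somatic lists. The counts below stand beside 55.4% of all genes that rose and 32.0% that fell. Of 21 ligands tested of 30, 20 rose and 1 fell (median 2.95), of 37 receptors tested of 40, 34 rose and 2 fell (median 1.94), and of 26 target genes tested of 27, 23 rose and 2 fell (median 2.11). Gdnf, the stem cell factor from Sertoli cells, had 4.48, 5.86 and 5.58 FPKM in Sa, against 0.44, 0.34 and 0.38 in Con (2.18 ± 0.12). Its co-receptor Ret was at 1.08 ± 0.11, against the fall of Gfra1. Kitl, the ligand of Kit, had 11.8, 17.1 and 19.3 FPKM in Sa, against 0.70, 1.09 and 1.22 in Con (3.07 ± 0.20). Dhh, the hedgehog ligand that Leydig cells need, was at 3.22 ± 0.13, and its targets Gli1 and Ptch1 at 1.47 ± 0.12 and 2.45 ± 0.15.

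After Sertoli scaling 3 ligands, 1 receptor and 2 targets were higher, and 6 ligands, 26 receptors and 18 targets were lower. Among all genes 1.20% were higher and 89.6% lower. Wnt4, a ligand that opposes the testis fate in the embryo, had 10.2, 7.27 and 15.7 FPKM in Sa, against 0.11, 0.22 and 0.03 in Con (3.37 ± 0.24 before and 1.48 ± 0.22 after scaling). Edn1, a vasoconstrictor peptide, had 9.77, 10.7 and 16.4 FPKM in Sa, against 0.42, 0.45 and 0.27 in Con (0.86 ± 0.15 after scaling). Amh and Fshr were the third ligand and the receptor. Wnt4, Edn1 and Amh were under 1 FPKM in every Con library. They were thus tested only through Sa and could not be among the 45, which include Fshr. The targets were the immediate early genes Egr1 with 49.3, 50.4 and 68.2 FPKM in Sa, against 2.50, 2.94 and 1.98 in Con (0.71 ± 0.15 after scaling) and Fos with 36.2, 59.2 and 75.7 FPKM in Sa, against 2.56, 2.72 and 2.17 in Con (0.68 ± 0.19 after scaling). Against their lists, and before scaling, fell Jag1, a Notch ligand, with 2.94, 3.05 and 3.35 FPKM in Sa, against 15.4, 15.7 and 15.2 in Con (-2.0 ± 0.09), Smad6, an inhibitor of BMP signals (-1.71 ± 0.16), and Lef1, a Wnt effector (-1.36 ± 0.16).

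Most matrix genes rose. Of 27 matrix genes tested of 28, 26 rose and 1 fell (median 2.06), and 23 were lower after Sertoli scaling. For all genes the shares were 55.4% that rose and 32.0% that fell, and 1.20% higher and 89.6% lower after scaling. Lama1, the laminin chain of the tubule's basement membrane, had 21.2, 21.7 and 27.4 FPKM in Sa, against 1.82, 1.55 and 1.38 in Con (3.24 ± 0.13), Lamb2 was at 3.67 ± 0.15 and Lamc1 at 2.76 ± 0.12, while the collagens Col4a1 and Col1a1 were at 2.33 ± 0.17 and 2.06 ± 0.13. Postn, periostin, was the 1 that fell (-1.10 ± 0.16). All 22 proteases and inhibitors tested of 25 rose (median 2.76); after Sertoli scaling 3 were higher and 8 lower. Mmp14, a membrane metalloproteinase, had 72.5, 78.7 and 90.8 FPKM in Sa, against 5.12, 5.98 and 4.31 in Con (3.74 ± 0.14) and Ctsl, a cathepsin made by Sertoli cells, 1192, 1329.6 and 1569.9 FPKM in Sa, against 103, 107 and 94.6 in Con (3.73 ± 0.14).

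Genes for the uptake of dying cells rose. Of 19 tested of 23, 18 rose and none fell (median 2.64). Among all genes 55.4% rose and 32.0% fell as deposited, and 1.20% were higher and 89.6% lower after Sertoli scaling. The 3 receptors that recognise dying germ cells through Gas6 and Pros1 were Tyro3 with 136, 146 and 171 FPKM in Sa, against 10.4, 9.29 and 7.66 in Con (3.91 ± 0.14), Axl with 146, 157 and 171 FPKM in Sa, against 12.7, 12.1 and 10.7 in Con (3.63 ± 0.11) and Mertk with 14.1, 16.9 and 19.2 FPKM in Sa, against 0.98, 0.96 and 0.99 in Con (3.16 ± 0.13). After Sertoli scaling 2 of the 19 were higher, Tyro3 (0.32 ± 0.13) and Mertk (0.29 ± 0.11), and 12 were lower (median -0.44). Mertk was under 1 FPKM in every Con library, so it was tested only through Sa. Axl did not pass (0.01 ± 0.12). Elmo1 and Rac1, which carry the engulfment signal, were at 2.53 ± 0.09 and 2.73 ± 0.09, and after scaling at -0.99 ± 0.13 and -0.90 ± 0.12. In complement, 15 of 18 genes tested of 21 rose and 3 fell (median 1.66); after scaling 1 was higher and 9 were lower. C1s1 was at 3.21 ± 0.18 and C7 at 1.57 ± 0.25. Those that fell were C6 (-1.41 ± 0.30) and the membrane regulators Cd55 (-2.14 ± 0.19) and Cd46 (-1.80 ± 0.15), the last of which is known in mice chiefly from the sperm acrosome. Cfi, the protease that inactivates C3b, had 7.85, 7.32 and 16.8 FPKM in Sa, against 0.32, 0.30 and 0.25 in Con and was higher after scaling (0.87 ± 0.19). Cfi too was tested only through Sa.

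Most stress genes rose as deposited, where 55.4% of all genes rose and 32.0% fell. Under Sertoli scaling 1.20% of all genes were higher and 89.6% lower. Of 19 interferon response genes tested of 27, 17 rose (median 2.09); none was higher and 13 were lower after Sertoli scaling. As deposited, Irf1 was at 2.61 ± 0.11 and Ifitm2 at 2.98 ± 0.20. Of 19 p53 targets tested of 20, 17 rose (median 1.79); none was higher and 15 were lower after scaling. Sesn2 had 73.4, 76.9 and 87.7 FPKM in Sa, against 9.52, 8.96 and 7.60 in Con (3.05 ± 0.12), Ei24 was at 2.56 ± 0.10 and Phlda3 at 2.48 ± 0.13. Cdkn1a, the p53-driven cell cycle inhibitor, had 5.79, 4.11 and 10.9 FPKM in Sa, against 1.82, 1.39 and 2.01 in Con (1.45 ± 0.29). Mdm2, the regulator of p53 itself, had 38.5, 31.9 and 27.8 FPKM in Sa, against 52.7, 57.5 and 57.1 in Con (-0.76 ± 0.13) and was the 1 that fell.

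The cell cycle list moved in both directions. Of 24 genes, all tested, 10 rose and 8 fell (median 0.07), where 55.4% of all genes rose and 32.0% fell. After Sertoli scaling none was higher and 24 were lower (median -3.29), beside 1.20% and 89.6% of all genes. Mcm2 was among the 24 (-1.48 ± 0.18). The replication helicase genes Mcm2, Mcm3, Mcm4, Mcm5 and Mcm6 rose, by 1.85 ± 0.14 in Mcm2, with 22.4, 18.9 and 15.7 FPKM in Sa, against 4.34, 4.75 and 4.38 in Con, to 1.17 ± 0.15 in Mcm6. Mcm7, the last subunit of the same helicase, fell (-0.78 ± 0.20). Among genes of mitosis and the meiotic divisions that fell, Plk1 had 37.7, 27.9 and 21.4 FPKM in Sa, against 99.4, 87.1 and 85.9 in Con (-1.65 ± 0.19), Ccnb2 was at -1.52 ± 0.20, Aurka at -1.35 ± 0.18 and Birc5 at -1.28 ± 0.19. Mki67, the proliferation antigen, had 4.47, 3.92 and 2.45 FPKM in Sa, against 1.63, 2.55 and 2.27 in Con (0.53 ± 0.20), and its groups overlapped. In 23 of the 24 genes Sa replicate 1 was the highest of the Sa libraries, as in most members of the spermatocyte and spermatid lists.

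Lipid genes moved in both directions. Of 22 tested of 25, 16 rose and 6 fell (median 2.02), beside 55.4% and 32.0% of all genes. After Sertoli scaling 1 was higher and 12 were lower, beside 1.20% and 89.6% of all genes. Fabp5, a fatty acid carrier, had 128, 132 and 139 FPKM in Sa, against 5.69, 5.14 and 4.55 in Con and was the 1 higher after Sertoli scaling (0.94 ± 0.12). Scd2, a desaturase, was at 3.99 ± 0.15 and Soat1, which esterifies cholesterol, at 3.13 ± 0.15. The falls were in Lipe, hormone-sensitive lipase, with 14, 12.5 and 8.0 FPKM in Sa, against 153, 144 and 144 in Con (-3.60 ± 0.19), Acsl1, which activates fatty acids, with 26.3, 19 and 14.8 FPKM in Sa, against 236, 236 and 233 in Con (-3.52 ± 0.19), Dgat2 (-2.30 ± 0.23), Pnpla2 (-1.14 ± 0.12), Dgat1 (-0.83 ± 0.15) and Plin2 (-0.67 ± 0.12), enzymes and a coat protein of lipid droplets. In none of the 6 did the groups overlap, as in 88.9% of all genes tested. Among nuclear receptors, 21 of 27 tested of 38 rose and 2 fell (median 1.51); after scaling 1 was higher and 21 were lower. Nr5a1, which drives steroid genes in both Sertoli and Leydig cells, had 91.5, 112 and 117 FPKM in Sa, against 9.17, 7.35 and 7.49 in Con (3.58 ± 0.13), and Rara, a retinoic acid receptor, was at 2.97 ± 0.11. Nr6a1, known as germ cell nuclear factor, had 13.1, 9.61 and 7.95 FPKM in Sa, against 43.6, 43.8 and 42.6 in Con (-2.01 ± 0.16), and Nr2c1 was at -0.80 ± 0.09.

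Late germ cells use their own copies of many housekeeping proteins, often retrogenes whose parent gene is on the X chromosome and silent in meiosis. Of 31 pairs of such a testis paralog and its partner, 29 had both genes tested. In 19 of these the testis paralog fell and the partner rose. In all, 25 testis paralogs fell and 22 partners rose; the median log2 fold changes were -1.43 and 2.08. The rise of the partners depends on the scale: after Sertoli scaling none of the 29 was higher and 26 were lower, among them Gapdh (-1.53 ± 0.16) and Pgk1 (-1.04 ± 0.11). These counts stand beside 1.20% of all genes higher and 89.6% lower after scaling, and 55.4% that rose and 32.0% that fell as deposited. The ratio of testis paralog to partner was lower in every Sa library than in every Con library in 26 of 29 pairs. The testis paralog exceeded its partner in all 3 libraries in 12 pairs in Sa and in 24 in Con.

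Pgk2 had 70.9, 52.8 and 35.5 FPKM in Sa, against 594, 577 and 610.1 in Con, and its X-linked parent Pgk1 had 46.5, 53.9 and 57.6 FPKM in Sa, against 9.14, 8.16 and 8.11 in Con (2.50 ± 0.11). Gapdh, the partner of Gapdhs, had 834, 821 and 894 FPKM in Sa, against 206, 182 and 173 in Con (2.18 ± 0.12). In Con the testis paralog was the higher of both pairs. In Sa, Gapdh exceeded Gapdhs in all 3 libraries, and Pgk1 exceeded Pgk2 in replicates 2 and 3. The same direction held for the respiratory chain: Cox8c (-1.74 ± 0.23) against Cox8a (2.81 ± 0.09), Cox7b2 (-1.43 ± 0.23) against Cox7b (2.85 ± 0.17), Cox6b2 (-1.79 ± 0.27) against Cox6b1 (2.07 ± 0.11) and cytochrome c Cyct (-1.0 ± 0.21) against Cycs (2.35 ± 0.09). The linker histone of spermatids H1f7 was at -4.84 ± 0.51 and H1f0 at 1.75 ± 0.11. The ribosomal protein Rpl39l was at -1.59 ± 0.24 and Rpl39 at 2.42 ± 0.13. Rpl10l was at -1.21 ± 0.26, while Rpl10 had 12.2, 6.07 and 29.7 FPKM in Sa, against 0, 11.6 and 5.81 in Con and did not pass (limma adjusted p = 0.128). Near-identical copies can share reads, and the authors' handling of such reads is not stated.

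The remaining 10 pairs did not combine a fall of the testis paralog with a rise of its partner. Both genes fell in 3 pairs: Ldhc (-2.05 ± 0.22) and Ldha (-1.51 ± 0.15), Pabpc2 (-2.30 ± 0.19) and Pabpc1 (-1.50 ± 0.18), and Tbpl1 (-1.42 ± 0.16) and Tbp (-0.83 ± 0.14). Ldha, the lactate dehydrogenase of muscle and many other cells, had 283, 217 and 205 FPKM in Sa, against 683, 658 and 651 in Con. The testis paralog rose in 3 pairs, Rad21l (1.16 ± 0.18), Taf7l (0.75 ± 0.19) and Cstf2t (0.35 ± 0.10), whose partners were at 1.48 ± 0.10, 0.89 ± 0.12 and -0.28 ± 0.08; all 3 testis paralogs were lower after Sertoli scaling (-1.15 ± 0.18, -2.79 ± 0.24 and -3.11 ± 0.15), and Cstf2t was also at -0.29 under median-of-ratios scaling. In 4 pairs 1 gene did not pass: Rpl10 and Slc25a31, and the partners in Utp14b (-1.35 ± 0.17) with Utp14a (0.18 ± 0.20) and Eif4g3 (-1.01 ± 0.09) with Eif4g1 (0.14 ± 0.09). Slc25a31, the germ cell ADP/ATP carrier, had 31.1, 22.4 and 15.3 FPKM in Sa, against 19, 22.6 and 21.4 in Con and did not pass (limma adjusted p = 0.784), while Slc25a5 rose by 3.43 ± 0.13.

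**Figure D4:**
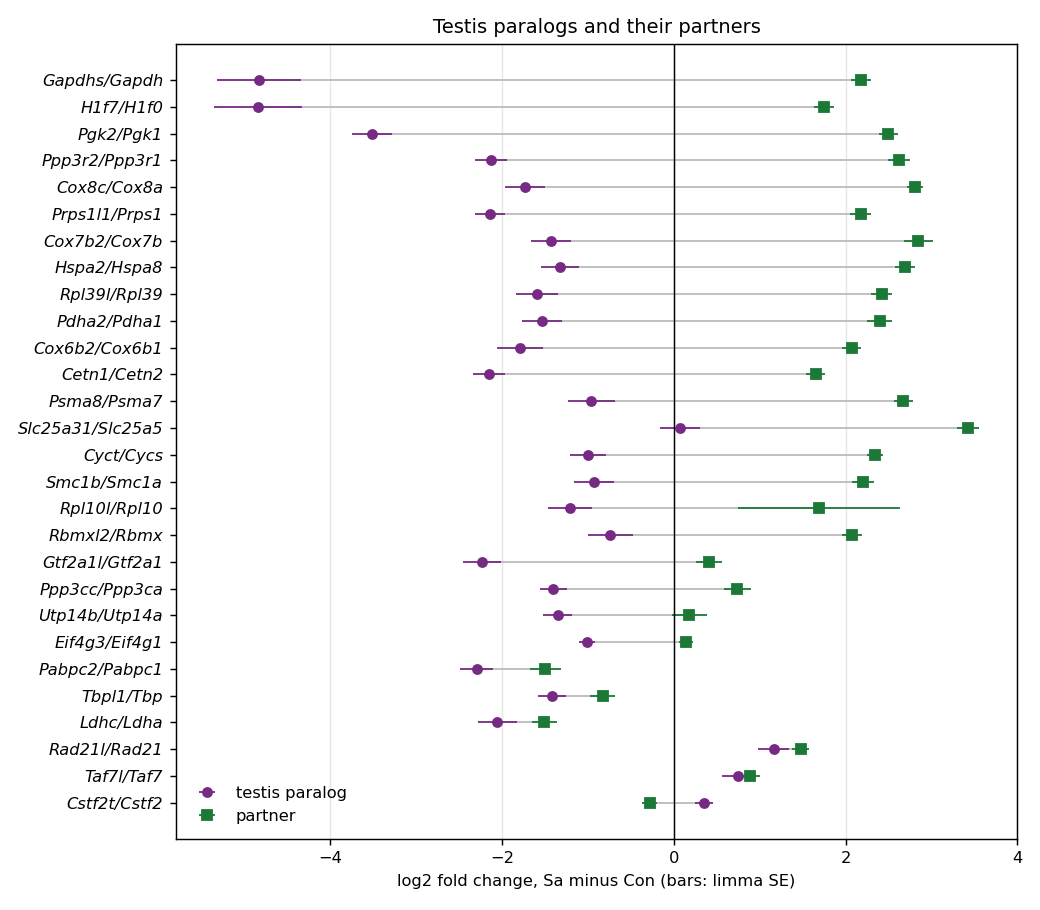
Log2 fold changes (Sa minus Con, with limma SE) of 28 testis paralogs (purple circles) and their partners (green squares), ordered by the change of their ratio. In the upper rows the paralog lies left of 0 and the partner right of it, as for Gapdhs (-4.83 ± 0.49) and Gapdh (2.18 ± 0.12); the last row, Cstf2t and Cstf2, has the reverse order.

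As deposited, X-linked genes rose more often than autosomal genes. Of 638 tested, 422 rose (66.1%) and 183 fell (28.7%), with a median log2 fold change of 1.21. Of 13197 autosomal genes 7430 rose (56.3%) and 4126 fell (31.3%), with a median of 0.59. The medians of single autosomes lay between 0.32 and 0.76. The median FPKM of X-linked genes was 4.89, 5.72 and 4.59 in Sa, against 2.77, 2.94 and 2.68 in Con. After Sertoli scaling the X-linked median was -1.18 and the autosomal -2.56, and 6 X-linked genes were higher and 502 lower, where 1.20% of all genes were higher and 89.6% lower. Without Sa replicate 2 the count of X-linked genes that rose was 278, with 13105 genes tested in all instead of 14798. Genes under 1 FPKM in every Con library were not tested in that fit. The difference between X-linked and autosomal genes was not tested, since genes of a chromosome share libraries.

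X-linked genes at the extremes were of different kinds. The largest rises after Timp1 were Gprasp2 with 45.8, 55.1 and 62.1 FPKM in Sa, against 2.92, 3.12 and 2.59 in Con (3.83 ± 0.13), Bex2 (3.78 ± 0.10), Gpc4, a proteoglycan of the cell surface (3.69 ± 0.14), and Ebp, an enzyme of cholesterol synthesis (3.65 ± 0.10). The largest falls, leaving out predicted genes, were in H2ap with 12.9, 8.51 and 2.33 FPKM in Sa, against 244, 251.2 and 243 in Con (-5.02 ± 0.47), Akap4 and several copies of the H2al1 family, short histone variants of spermatids. These copies are near identical, so their values may be split among them. Of 68 Y-linked rows tested 55 fell and 5 rose (median -1.43), and 23 of them share all values with another row. The 5 were Ddx3y with 3.55, 7.98 and 6.65 FPKM in Sa, against 0.51, 0.73 and 0.76 in Con (2.03 ± 0.25), Uty (1.37 ± 0.15), Kdm5d (1.26 ± 0.18), Gm3376 (1.05 ± 0.24) and Uba1y (0.95 ± 0.17); the first 3 are single-copy genes used in many cell types.

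**Figure D5:**
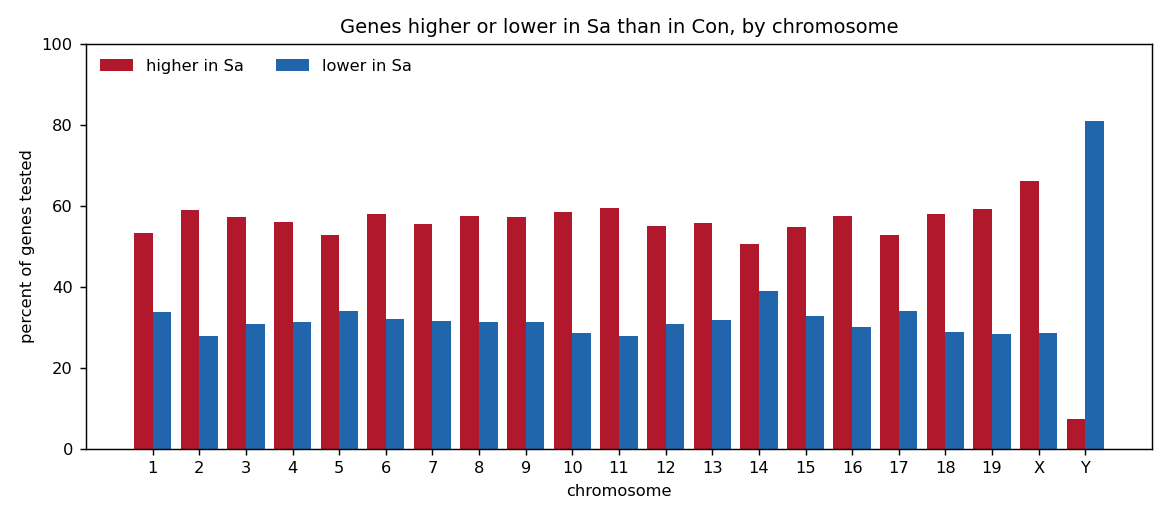
Percent of the genes tested on each chromosome that were higher (red) or lower (blue) in Sa than in Con. The X bars are 66.1% and 28.7%, the 19 autosomes lie between 50.7% and 59.6% higher, and the Y chromosome stands apart with 7.35% higher and 80.9% lower.

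Beyond the lists, the 10 largest falls among named genes included Lelp1 with 28.2, 14.4 and 2.89 FPKM in Sa, against 503, 473 and 494 in Con (-5.35 ± 0.65), Oxct2b, a ketone-body enzyme of spermatids, with 13.2, 7.50 and 1.17 FPKM in Sa, against 263, 232 and 238 in Con (-5.26 ± 0.61), and Spem2 (-5.24 ± 0.58). Among the largest rises were Cpe, an enzyme that trims peptide hormones, with 569.99, 667 and 688 FPKM in Sa, against 21.2, 24.4 and 21.2 in Con (4.79 ± 0.12), and Cnn3, an actin-binding calponin, with 90.8, 92 and 128 FPKM in Sa, against 3.21, 4.17 and 3.72 in Con (4.46 ± 0.16). The Sa and Con libraries of these genes did not overlap, which the rule that named them required and which held for 88.9% of all genes tested.

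Genes were also grouped by the stem of their symbol, and 90 families had at least 15 tested members. The 5 with the lowest medians were Spata (25 of 30 fell, median -3.08), Tex (25 of 37, -2.49), Adam (22 of 29, -2.02), Cfap (31 of 32, -1.95) and Prss (18 of 24, -1.71). Over all genes 32.0% fell. Spata and Tex are named for their expression in testis, Adam and Prss are proteases with many sperm members, and Cfap are cilia and flagella proteins. In Cfap only Cfap410 did not fall (0.27 ± 0.13, limma adjusted p = 0.0778), and Cfap97d1 had the largest fall (-3.92 ± 0.31). Of the 7 Adam genes that rose, Adam10, a widely used sheddase, had 25, 37.1 and 40.4 FPKM in Sa, against 3.14, 3.21 and 3.45 in Con (3.02 ± 0.18), and Adam9 was at 2.76 ± 0.15. The largest rise in Prss was that of Prss35 (3.54 ± 0.16).

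The 5 families with the highest medians were Aldh (14 of 17 rose, median 2.20), Tspan (14 of 17, 1.72), St (12 of 17, 1.70), Rab (40 of 54, 1.58) and Sema (14 of 15, 1.57). Over all genes 55.4% rose. After Sertoli scaling these medians were -0.73, -0.65, -0.64, -1.91 and -0.58 in the same order. Aldh1a1, which makes retinoic acid in Sertoli and Leydig cells, had 673, 1097 and 1035 FPKM in Sa, against 112, 89.1 and 106 in Con (3.15 ± 0.20). Aldh1a2, the retinoic acid enzyme of germ cells, had 59.2, 50.9 and 55 FPKM in Sa, against 65.9, 66.9 and 69.98 in Con (-0.29 ± 0.09). The largest rises in the semaphorins, guidance signals at the cell surface, were Sema7a with 174, 204 and 229 FPKM in Sa, against 15.1, 13.3 and 12.5 in Con (3.79 ± 0.13), Sema6c (3.66 ± 0.14) and Sema3c (3.23 ± 0.18), and Sema4a fell (-1.24 ± 0.09). In the St stem, mostly sialyltransferases, the largest fall was that of St6galnac2, which had 39.5, 27.9 and 15 FPKM in Sa, against 575, 544 and 596 in Con (-4.43 ± 0.31), and the largest rise that of St3gal2 (3.56 ± 0.20). The claudins, barrier proteins of tight junctions and chosen here after their values were seen, split: 11 of 17 fell, 9 of them in the Cldn34 group of near relatives, which may share reads, while Cldn11, the main strand of the blood-testis barrier, had 458, 478 and 584 FPKM in Sa, against 33, 31.4 and 29 in Con (3.98 ± 0.12). Cldn3, a claudin of the barrier when spermatocytes cross it, had 14.3, 26.2 and 12.8 FPKM in Sa, against 33.4, 30.6 and 30.7 in Con (-0.86 ± 0.24).

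Long noncoding RNAs mostly fell. Of 33 RefSeq long noncoding RNAs tested 8 rose and 24 fell (24.2% and 72.7%, median -1.42). Of 851 genes that the authors named as new, 330 rose (38.8%) and 352 fell (41.4%, median -0.11). Of 13823 protein-coding genes 7832 rose (56.7%) and 4312 fell (31.2%). With a mean of at least 5 FPKM in the other group, 7 genes were listed at 0 in all Con libraries and 5 in all Sa libraries, most of them new genes. Ranbp1, a widely used regulator of nuclear transport, was listed at 0 in Con and had 8.46, 10.2 and 9.59 FPKM in Sa; a 0 in a table without counts can be a failed estimate. Tmem179b was likewise listed at 0 in Con and had 15.7, 19.6 and 24.1 FPKM in Sa.

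Marker lists of other cells gave little. Of 14 lymphocyte genes only Cd3d passed the filter, of 11 granulocyte and mast cell genes only Kit, and of 12 epididymis genes 2, Aqp9 with 9.26, 9.27 and 6.23 FPKM in Sa, against 30.5, 27.6 and 31.8 in Con (-1.76 ± 0.16) and Rnase10 (-1.12 ± 0.12); the epididymal secretory genes Gpx5, Crisp1 and Adam7 were at or under 0.27 FPKM. Among red cell genes, Hba-a1 had 149, 234 and 269 FPKM in Sa, against 38.7, 21.1 and 34 in Con (2.76 ± 0.28) and Alas2 55.3, 43.6 and 45.5 FPKM in Sa, against 11.4, 9.28 and 8.60 in Con (2.19 ± 0.14), while Hbb-bs was at or under 0.23 FPKM in Sa and 5.27 in Con, and Hbb-bt was listed at 0 in Sa. The summed red cell list made up 0.0417% to 0.0661% of FPKM in Sa and 0.0065% to 0.0087% in Con. Its part in the other results was not tested. Adipoq, an adipocyte hormone, had 1.67, 1.12 and 0.72 FPKM in Sa, against 12.5, 12.6 and 11.2 in Con (-2.61 ± 0.17), and Lep, another, was at or under 0.03 FPKM in all libraries. Of 4 adipocyte genes tested of 7, 2 rose and 2 fell (median 0.15): Fabp4, a fatty acid carrier, was at 1.86 ± 0.16 and Plin1, a coat protein of lipid droplets, at 1.22 ± 0.18, while Retn, resistin, was at -0.92 ± 0.12.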

How the data were processed

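Testis RNA of 12 libraries was deposited as 1 table of FPKM for 22221 rows, of which the 3 Sa and 3 Con columns were used here. The authors' FPKM are, per the file headers, normalized values per gene; neither the aligner nor the genome build is given in the sources used here. Of 20288 numeric Gene IDs 20141 matched a RefSeq symbol. The low values did not resolve into whole reads, so depth is unknown and no count model was used. Genes with at least 1 FPKM in 3 of the 6 libraries were tested with limma 3.58.1 in R 4.3.3, with a mean-variance trend, on log2(FPKM + 1), which understates the change of low genes. P-values were adjusted by the Benjamini-Hochberg method over all 14798 genes at a threshold of 0.05. Values after ± are limma standard errors of the log2 fold change. Sertoli scaling multiplied each library so that the mean log2 level of the Sertoli list was equal. On simulated data for Sa minus Con over 14798 genes, 88% of changes of 1 log2 unit and 98% of changes of 2 were recovered.

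Genes were named by rule. Before Sertoli scaling these were the 10 largest changes each way, with 5 FPKM or more on average in the higher group and no overlap. After scaling they were again 10 each way by the same FPKM rule. Overlap was then not considered, and genes on the germ cell lists were left out. Also named were, in each list, the 3 smallest p, the highest FPKM and every member against the majority. So were all paralog pairs and the 3 largest changes each way of a described family. Other genes named in the text were chosen after their values were seen. The members and lists were chosen with earlier results of these data known. Alternatives were other scalings, pseudocounts, filters, a fit of all 12 libraries, a replicate block and leaving out each library. A few named items are not reported here.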

Additional observations from a re-analysis of the deposited data

How the results depend on the processing

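Scaling set most of the direction. Against 8204 genes higher and 4736 lower as deposited, Sertoli scaling gave 178 and 13256, and endothelial scaling 2116 and 9711; a fit of all 12 libraries left 2961 lower. The median of all genes was 0.57 as deposited, 0.00 with median-of-ratios scaling and 0.17 with quantile normalization. Leaving out 1 library gave 6324 to 7950 higher and 3934 to 4922 lower. The filter was applied anew each time, so genes at 1 FPKM only in the reduced group were no longer tested. The 178 genes higher after Sertoli scaling became 2116 with an endothelial and 3337 with a macrophage anchor, and 66 to 178 without 1 library. Both anchors raised fold changes as a whole relative to Sertoli scaling. That they held all 178 is therefore no independent check of these genes. X-linked genes higher (422) and lower (183) were 6 and 502 under Sertoli scaling, 193 and 281 under endothelial scaling, 258 and 121 with a filter of 5 FPKM, and 278 to 419 and 135 to 185 without 1 library. Of 206 named genes, 75 changed sign under Sertoli scaling and 23 under endothelial scaling, counting genes that passed before or after. Not all of them passed after scaling: Phlda3 was at -0.01 ± 0.17 under Sertoli scaling (limma adjusted p = 0.957). The other alternatives gave 3018 single-gene values, of which 2936 kept the call, 71 lost it, 4 gained it and 7 changed sign. Signs were compared only where a gene passed in either fit. Those 7 were Cstf2t (-0.29), Eif4g1 (-0.54), Gtf2a1 (-0.18) and Slc25a31 (-0.59) with median-of-ratios scaling, and Cstf2t (-0.11), Gtf2a1 (-0.31) and Utp14a (-0.51) with quantile normalization. Same-numbered libraries did not deviate together (correlations -0.01, -0.04 and -0.19), so the numbers were not taken as pairs; with the replicate block 8080 genes were higher and 4659 lower, 161 and 13149 after Sertoli scaling, and 421 and 182 on the X chromosome. The causes were not tested.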
